A study of Mus musculus with 8 samples.

Results

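The BCL2 family decides whether the outer mitochondrial membrane of a cell stays closed. Of its genes, 10 well-known members, chosen by name, were followed here in pancreatic islets of Wfs1 knockout mice: 4 pro-survival genes (Bcl2, Bcl2l1, Bcl2l2 and Mcl1), 2 effector genes (Bax and Bak1) and 4 BH3-only genes (Bcl2l11, Bbc3, Pmaip1 and Bid). All 10 were found, each as 1 entry, among the 24537 genes of the count table, and all 10 passed the filter on low counts. Pro-survival proteins hold the effectors in check, effectors open pores that release cytochrome c, and BH3-only proteins carry stress signals that neutralize the pro-survival proteins or switch on the effectors. In beta cells, the insulin-secreting cells that make up most of a mouse islet, this balance is known as a point where prolonged stress of the endoplasmic reticulum (ER) meets the mitochondrial death pathway.

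Polyadenylated RNA was sequenced from islets of 12-week-old male mice, with 4 wild-type (WT) and 4 Wfs1 knockout (Wfs1KO) samples and no treatment. Wfs1 encodes wolframin, an ER membrane protein that is mutated in Wolfram syndrome. The labels give neither the strain nor the part of the gene that was deleted, and an islet sample mixes beta cells with other endocrine, vascular and immune cells. In such bulk samples, fewer cells of a type and less RNA per cell cannot be told apart.

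Exon counts ran from 15810830 to 27057617 per library. Wfs1 itself stood at 156 to 190 CPM (each library scaled to the same total, with a correction for composition) in the WT libraries and at 98.8 to 125 CPM in the Wfs1KO libraries (log2 fold change -0.74, SE 0.08, adjusted p = 5.05e-05), and the exons behind the remaining reads cannot be read from gene counts. The first principal component (37.9% of variance) set replicates 1 and 2 apart from replicates 3 and 4 in both genotypes, and the share of mapped reads in exons was 60.0% to 66.9% in the former and 71.9% to 76.5% in the latter. The labels do not say what the replicate numbers mark. Of the cell type markers, 11 of 12 endothelial, 3 of 11 pericyte and stellate, 0 of 10 macrophage, 0 of 11 lymphocyte and 0 of 10 acinar genes rose, while 8 of 10 beta cell markers fell and 1 rose. In the remaining lists, 3 of 5 delta and PP cell, 1 of 6 alpha cell, 1 of 8 ductal and 1 of 6 neural and glial genes rose. There, 1 ductal gene fell. Over all 15733 tested genes the shares were 10.4% higher and 8.49% lower.

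Bcl2 rose and Bcl2l11 fell in Wfs1KO islets, and the other 8 members did not pass the test. Bcl2 encodes the founding pro-survival protein of the family. Bcl2l11 encodes BIM, a BH3-only protein that binds all the main pro-survival proteins and can activate the effectors. Each changed 1.39-fold, in opposite directions. Of all 15733 genes tested, 18.9% were called (10.4% higher and 8.49% lower), so 2 of 10 members is close to that background as a count. The median log2 fold change of the 10 members was 0.0013, beside 0.01 for all tested genes.

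The sequences just upstream of these genes' starts are shown because Bcl2 and Bcl2l11 are the members that changed. They are the 250 bases before the annotated start, from RefSeq on build GRCm38.p6, in lower case and on the strand of the gene, with any match to a searched motif in capitals. Bcl2 lies on the minus strand (window chr1:106714291-106714540), and the Bcl2l11 window belongs to the first of its 2 annotated starts, on the plus strand (chr2:128125788-128126037).
Bcl2: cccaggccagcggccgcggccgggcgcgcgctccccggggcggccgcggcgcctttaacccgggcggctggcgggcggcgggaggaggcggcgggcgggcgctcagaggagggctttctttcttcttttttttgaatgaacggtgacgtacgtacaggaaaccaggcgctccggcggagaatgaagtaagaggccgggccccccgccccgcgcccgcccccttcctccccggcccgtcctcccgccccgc
Bcl2l11: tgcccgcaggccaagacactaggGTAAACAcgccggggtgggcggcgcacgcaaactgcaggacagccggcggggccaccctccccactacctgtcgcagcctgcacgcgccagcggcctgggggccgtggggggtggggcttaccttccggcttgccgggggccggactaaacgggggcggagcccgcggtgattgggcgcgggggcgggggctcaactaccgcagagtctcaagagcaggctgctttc

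Both stretches are rich in G and C (74.8% in Bcl2 and 72.0% in Bcl2l11). The capitals in Bcl2l11 mark GTAAACA, a core that FoxO transcription factors can bind, at positions -227 to -221 from the start. Searched on both strands from 250 bases before to 50 after a start, GTAAACA was in 2 of 14 windows of the members (9 members had a window) and in 3.65% of all 32851 windows. The other match was at positions -167 to -161 from the second of 3 starts of Bbc3, on the opposite strand. TGATGNAA, the core at which ATF4 pairs with a C/EBP protein such as CHOP, was in 0 of the 14 windows and in 3.97% of all, and TGACGTCA, the cyclic AMP response element, in 0 of 14 and 1.79%. A single p53 decamer, one arm of a full p53 site, was in 1 of 14 and in 8.36% of all: it lay at positions -201 to -192 from the start of Bax and matched on either strand. These matches describe letters in a window and not binding.

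Among the pro-survival genes, Bcl2 (NM_009741, chromosome 1, 106538176 to 106714290 in mm10, minus strand) had 8.24, 8.77, 8.64 and 9.17 CPM in the WT libraries. The Wfs1KO libraries had 13.9, 11.4, 11.9 and 11.0 CPM, and here and below values follow the order of replicates 1 to 4. Every Wfs1KO library was above every WT library, with replicate 1 the highest. The log2 fold change was 0.47 (SE 0.10, 95% interval 0.26 to 0.68, adjusted p = 0.00370), from 8.70 ± 0.382 to 12.1 ± 1.28 CPM (SD, n = 4 each). It rested on 128 to 397 reads per library. The call held without any 1 of the 8 libraries (adjusted p 0.00411 to 0.0150), but in replicates 3 and 4 alone it did not pass (log2 fold change 0.35, adjusted p = 0.119), against 0.56 and 0.0107 in replicates 1 and 2.

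Endothelial cells line the islet capillaries, and their markers were, like Bcl2, higher in Wfs1KO islets. The 12 markers summed to 613 to 699 CPM in WT and 832 to 980 CPM in Wfs1KO libraries, with a median log2 fold change of 0.49. Within a genotype, the libraries with the highest marker sum (WT 3 and Wfs1KO 3) were not those with the most Bcl2 (WT 4 and Wfs1KO 1). Per 100 CPM of these markers, Bcl2 stood at 1.35 ± 0.0950 CPM in WT and 1.32 ± 0.121 CPM in Wfs1KO (SD, n = 4 each), and the genotypes overlapped. Lymphocyte markers, of cells in which Bcl2 is well known, summed to 35.0 to 93.4 CPM in WT and 24.8 to 112 CPM in Wfs1KO, and overlapped. The part of these cells in the rise of Bcl2 was not tested.

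Mcl1 (NM_008562, chromosome 3, 95658721 to 95663178, plus strand) encodes a short-lived pro-survival protein that is lost quickly when translation is blocked. It stood at 120, 121, 126 and 124 CPM in WT and at 137, 129, 135 and 137 CPM in Wfs1KO islets. The genotypes did not overlap, yet the difference was small, 9.93%, and did not pass (log2 fold change 0.14, SE 0.05, 95% interval 0.03 to 0.24, adjusted p = 0.0602). Its adjusted p stayed between 0.0515 and 0.200 under every alternative other than the fits of replicates 1 and 2 or 3 and 4 alone. In all, 3 members, Bcl2, Bcl2l11 and Mcl1, had no overlap between genotypes, which was so for 22.6% of all tested genes.

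Bcl2l1 (NM_001289716, chromosome 2, 152780664 to 152830717, minus strand) encodes BCL-XL, and its short splice form, which promotes death, was not counted apart. Levels were 65.6, 63.9, 79.1 and 87.9 CPM in WT and 71.5, 84.6, 71.1 and 68.4 CPM in Wfs1KO islets. The means were almost equal (74.1 ± 11.4 and 73.9 ± 7.24 CPM, log2 fold change -0.0048, 95% interval -0.24 to 0.23, adjusted p = 0.981). Within replicates 1 and 2 both Wfs1KO libraries were above both WT libraries (0.25, adjusted p = 0.0549), and within replicates 3 and 4 both were below (-0.27, adjusted p = 0.0413). The difference between these pairs was not tested. Bcl2l2 (NM_007537, chromosome 14, 54883425 to 54888234, plus strand), which encodes BCL-W, ranged from 112 to 129 CPM in WT and from 110 to 125 CPM in Wfs1KO (log2 fold change -0.02, 95% interval -0.15 to 0.11, adjusted p = 0.841), so the genotypes overlapped throughout.

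**Figure D1:**
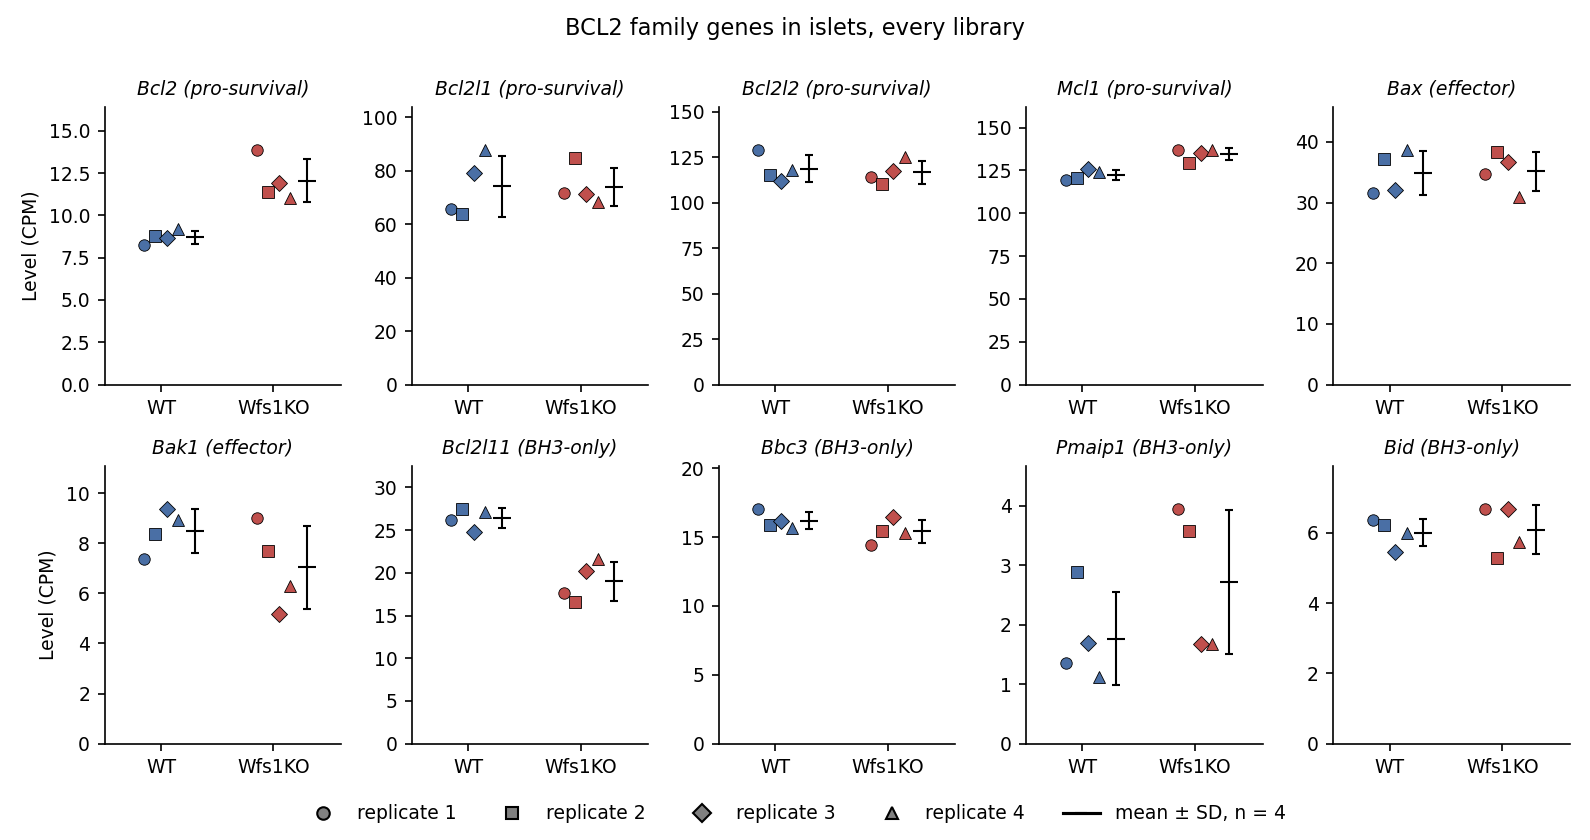
Level in CPM (vertical axes, from 0) of each of the 10 BCL2 family genes in every WT (blue) and Wfs1KO (red) library, with marker shape for the replicate number and a bar for mean ± SD (n = 4). Bcl2 is at 8.24 to 9.17 CPM in WT and 11.0 to 13.9 CPM in Wfs1KO, Bcl2l11 at 24.8 to 27.5 and 16.6 to 21.6 CPM, and Mcl1 also parts the genotypes, by less.

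The effectors BAX and BAK are the proteins that form the pores. Bax (NM_007527, chromosome 7, 45461695 to 45466898, minus strand) stood at 31.6, 37.1, 32.1 and 38.7 CPM in WT and at 34.7, 38.3, 36.7 and 30.8 CPM in Wfs1KO islets. The genotypes overlapped almost fully (log2 fold change 0.0075, SE 0.08, 95% interval -0.17 to 0.19, adjusted p = 0.964), an interval that spans changes of -11.3% to 13.9%. Bak1 (NM_007523, chromosome 17, 27019812 to 27028626, minus strand) was at 7.35, 8.36, 9.38 and 8.92 CPM in WT and at 8.99, 7.69, 5.19 and 6.28 CPM in Wfs1KO. Its log2 fold change was -0.26 (SE 0.15, 95% interval -0.59 to 0.07, adjusted p = 0.283). The 2 lowest libraries were Wfs1KO replicates 3 and 4, and in replicates 3 and 4 alone Bak1 was called lower (-0.68, adjusted p = 0.0215), against 0.072 and 0.827 in replicates 1 and 2.

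Of the BH3-only genes, Bcl2l11 (NM_207680, chromosome 2, 128126038 to 128162547, plus strand) stood at 26.1, 27.5, 24.8 and 27.1 CPM in WT and at 17.6, 16.6, 20.2 and 21.6 CPM in Wfs1KO islets. All 4 Wfs1KO libraries were below all 4 WT libraries. From 26.4 ± 1.19 to 19.0 ± 2.31 CPM (SD, n = 4 each), the log2 fold change was -0.48 (SE 0.08, 95% interval -0.66 to -0.30, adjusted p = 0.00120), a decrease of 28.3%. The call held without any 1 of the 8 libraries (adjusted p 5.48e-04 to 0.00550) and with the replicate number as a block (0.00187). It was larger in replicates 1 and 2 alone (-0.67) than in replicates 3 and 4 alone (-0.32, adjusted p = 0.0519), a difference that was not tested. BIM is made in several splice forms of unequal killing power, which these counts do not separate. Beta cell markers moved the same way as Bcl2l11 (8 of 10 fell, median log2 fold change -0.65), and the part of beta cell number in its decrease was not tested.

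Bbc3 (NM_133234, chromosome 7, 16309583 to 16318334, plus strand) encodes PUMA, a potent BH3-only protein induced by p53 and, in ER stress, described as a CHOP target. It ranged from 15.6 to 17.1 CPM in WT and from 14.4 to 16.5 CPM in Wfs1KO (log2 fold change -0.07, SE 0.07, 95% interval -0.23 to 0.08, adjusted p = 0.549). An increase of more than 5.88% lay outside that interval. Bid (NM_007544, chromosome 6, 120893119 to 120916820, minus strand), which links death receptors to mitochondria once caspase 8 cuts it, was at 5.47 to 6.35 CPM in WT and 5.27 to 6.69 CPM in Wfs1KO (0.02, 95% interval -0.25 to 0.29, adjusted p = 0.936).

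Pmaip1 (NM_021451, chromosome 18) encodes NOXA, which binds MCL1 and promotes its loss. Among the 10 members it had the fewest reads, 23 to 113 per library, and the largest SE of the log2 fold change. Its level was 1.37, 2.88, 1.69 and 1.13 CPM in WT and 3.95, 3.58, 1.67 and 1.68 CPM in Wfs1KO islets. Wfs1KO replicates 1 and 2 were above all others, while Wfs1KO replicates 3 and 4 lay within the WT range. The log2 fold change of 0.64 (SE 0.36, 95% interval -0.14 to 1.43) did not pass (adjusted p = 0.257), and at this depth a change of such size could not be told from the spread.

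**Figure D2:**
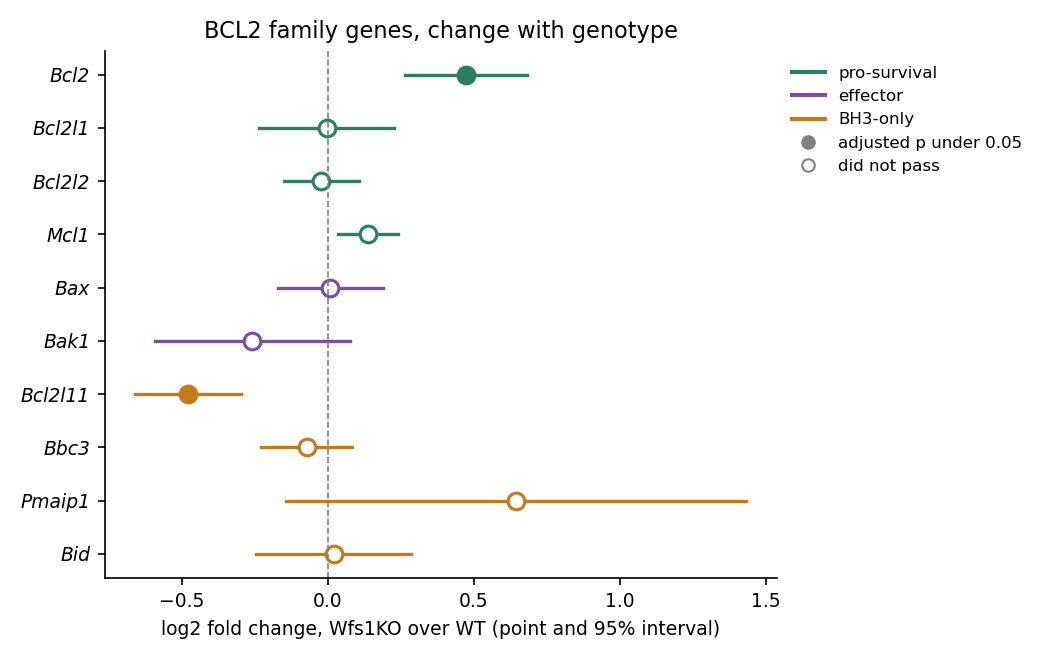
Log2 fold change of Wfs1KO over WT (horizontal axis; point with 95% interval) for the 10 members, coloured by role, with filled points for an adjusted p under 0.05. Bcl2 (0.47) and Bcl2l11 (-0.48) are the filled points, and the interval of Pmaip1, from -0.14 to 1.43, is the widest.

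Compared per transcript length (CPM per kb), the 10 members spanned a wide range in WT islets. Among them, Bax was highest at 40.5 ± 4.17 CPM per kb, followed by Mcl1 (35.2 ± 0.809), Bcl2l2 (34.3 ± 2.16) and Bcl2l1 (28.3 ± 4.35). Every WT library had Bax above the highest WT value of Mcl1. Bax was not clear of Bcl2l2, which was higher in WT replicate 1 (37.4 against 36.7 CPM per kb). Between libraries, Mcl1 also overlapped Bcl2l2, and Bcl2l2 overlapped Bcl2l1. A gap followed to Bbc3 (8.22 ± 0.318), Bcl2l11 (5.25 ± 0.237), Bak1 (4.27 ± 0.438) and Bid (3.19 ± 0.209). Bcl2 was next to last at 1.21 ± 0.0530 and Pmaip1 last at 0.667 ± 0.294 CPM per kb. The order of the 10 means was the same in Wfs1KO islets, where Bax and Mcl1 overlapped (40.8 ± 3.74 and 38.7 ± 1.03), as did Bcl2l11, Bak1 and Bid (3.77 ± 0.459, 3.53 ± 0.831 and 3.24 ± 0.376). Bcl2l2 overlapped Bax and Bcl2l1 there as well.

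**Figure D3:**
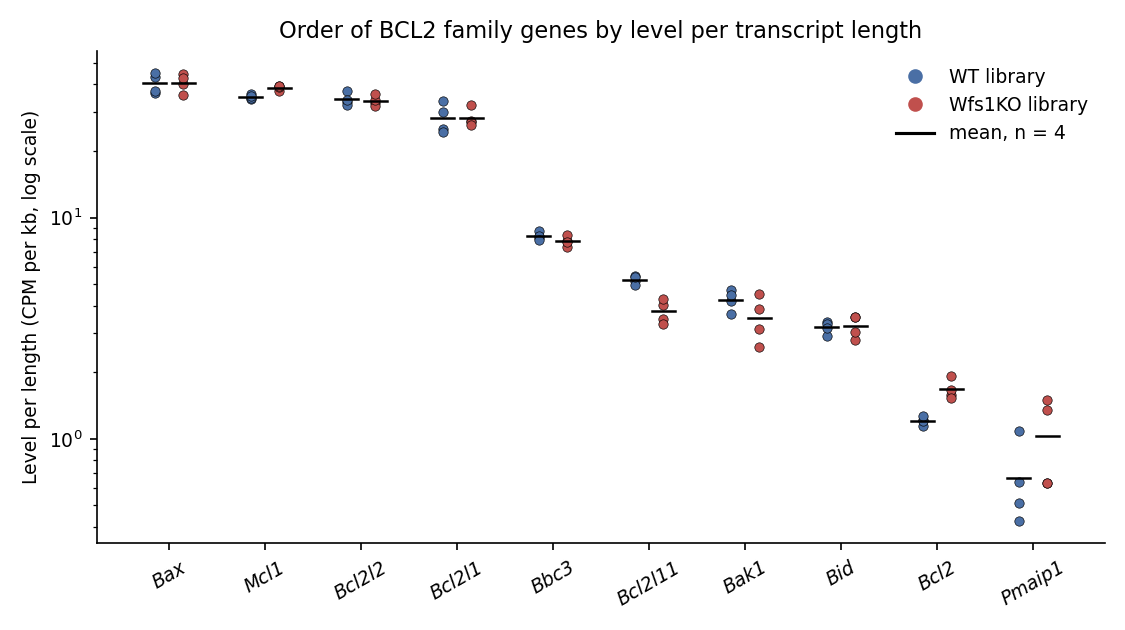
Level per transcript length (CPM per kb, log axis) of the 10 members in each WT (blue) and Wfs1KO (red) library, with lines at the means, ordered by the WT mean. Bax, Mcl1, Bcl2l2 and Bcl2l1 are between 24.4 and 45.0 CPM per kb in every library, and Bcl2 stays below 2 CPM per kb in both genotypes.

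Among the 10 members, those that changed held unequal parts of their role's sum, a small one for Bcl2 and a larger one for Bcl2l11. Each sum covers only the members of that role. Other BH3-only genes were left out, among them Bad (13.5 CPM per kb over all libraries), Bik (4.84) and Bmf (2.33). Bad stood above each BH3-only member. Bcl2 made up 1.22% ± 0.0562 of the summed pro-survival level per length in WT and 1.64% ± 0.184 in Wfs1KO. That sum was 99.0 ± 4.55 CPM per kb in WT and 102 ± 0.822 in Wfs1KO, and overlapped. Bcl2l11 took 30.3% ± 1.15 of the summed BH3-only level in WT and 23.8% ± 2.59 in Wfs1KO, and Bbc3 took 47.5% ± 1.97 and 49.3% ± 2.23. The BH3-only sum was 17.7, 17.9, 16.7 and 16.9 CPM per kb in WT and 15.9, 15.3, 16.6 and 15.8 in Wfs1KO. The highest Wfs1KO value was just below the lowest WT value. This largely restates the fall of Bcl2l11: the mean sum went from 17.3 to 15.9, and Bcl2l11 alone from 5.25 to 3.77 CPM per kb. Bad, outside the sum, was higher in every Wfs1KO library (19.8 to 21.9 CPM, against 17.0 to 19.7 in WT) but did not pass (adjusted p = 0.131).

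Ratios within a library do not depend on scaling between libraries. Bcl2 over Bcl2l11, per length, was 0.220, 0.223, 0.243 and 0.236 in WT and 0.551, 0.478, 0.413 and 0.356 in Wfs1KO. The lowest Wfs1KO ratio was above the highest WT ratio. This had to follow, since Bcl2 was higher and Bcl2l11 lower in every Wfs1KO library than in every WT library. Bax over Bcl2 is a ratio often quoted as a measure of readiness to die. It was 32.0, 35.5, 31.1 and 35.4 in WT and 20.9, 28.2, 25.7 and 23.4 in Wfs1KO, lower in all 4 Wfs1KO libraries. Bax itself overlapped between genotypes (log2 fold change 0.0075), so this ratio largely restates the rise of Bcl2. Bax over Bcl2l1, the far more abundant pro-survival gene, was 1.45 ± 0.231 in WT and 1.45 ± 0.0926 in Wfs1KO, and Bax over Mcl1 was 1.15 ± 0.119 and 1.06 ± 0.121. Bax over Bcl2l2 was 1.19 ± 0.155 in WT and 1.21 ± 0.168 in Wfs1KO. The sum of the 4 pro-survival members over that of the 4 BH3-only members was 5.72 ± 0.433 in WT and 6.46 ± 0.254 in Wfs1KO. For Bax over Bcl2l1, Mcl1 and Bcl2l2 and for this ratio of sums, the genotypes overlapped. As sums and ratios of chosen genes, these values carry no test.

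**Figure D4:**
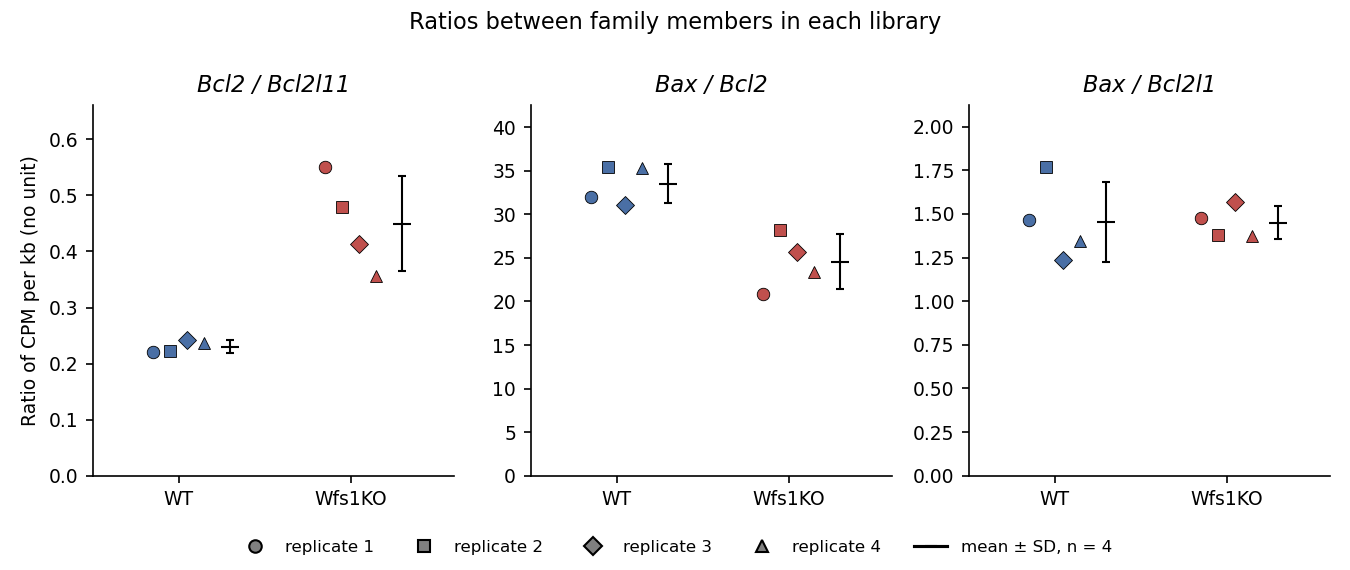
Ratio of levels per length (vertical axes, from 0, no unit) in each WT (blue) and Wfs1KO (red) library, with mean ± SD (n = 4) and marker shape for the replicate number. Bcl2 over Bcl2l11 is higher and Bax over Bcl2 lower in every Wfs1KO library, while Bax over Bcl2l1 overlaps. The separation of Bcl2 over Bcl2l11 follows from that of each gene alone, and that of Bax over Bcl2 largely restates the rise of Bcl2.

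Other genes of the family and its pathway were counted in lists. For this list and those below, the share called over all tested genes was 18.9% (10.4% higher and 8.49% lower). Of 12 that passed the filter, 1 rose, 0 fell and 11 did not pass (median log2 fold change 0.06). Bnip3l, a mitophagy receptor with a BH3-like stretch, rose from 53.6 ± 3.23 to 63.0 ± 2.38 CPM (log2 fold change 0.23, SE 0.06, adjusted p = 0.0114). Its relative Bnip3 stood at 0.28 (adjusted p = 0.0509), which passed without WT replicate 4 (0.0179) or Wfs1KO replicate 3 (0.0222) and with DESeq2 (0.0380). The most abundant per length were the autophagy gene Becn1 (49.9 CPM per kb), Bnip3 (30.3) and Bnip3l (18.1). Becn1 did not pass (-0.07, adjusted p = 0.406), and its exons overlap those of Cntd1 on the other strand. The neuronal BH3-only gene Hrk, chosen after its value was seen, had the largest log2 fold change of the 12, 0.522 to 1.09 CPM (log2 fold change 1.05, SE 0.43, adjusted p = 0.108), and did not pass.

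Downstream of the pore, 1 of 20 apoptosome, caspase and inhibitor genes rose, 2 fell and 17 did not pass (median 0.03). Both subunits of the DNA-cutting factor of apoptosis changed, in opposite directions. Dffa, the inhibitor and chaperone of the nuclease, rose from 27.5 ± 1.05 to 33.4 ± 1.48 CPM (log2 fold change 0.28, SE 0.06, adjusted p = 0.00444), and Dffb, the nuclease, fell from 12.4 ± 1.89 to 8.96 ± 0.609 CPM (-0.47, SE 0.11, adjusted p = 0.00972). Casp2, a caspase of the p53 pathway, fell (-0.24, adjusted p = 0.0326). This call was lost when WT 3, WT 4 or any of Wfs1KO 2, 3 and 4 was left out (0.0582 to 0.109), and with the replicate block (0.0529). The apoptosome scaffold gene Apaf1 stood at 0.03 (adjusted p = 0.917) and the caspase inhibitor gene Xiap at -0.09 (0.341).

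Among 10 tested death receptor and adaptor genes 2 rose and 0 fell (median 0.18). Fas, whose protein starts the pathway that cuts BID, rose from 3.07 ± 0.288 to 4.99 ± 0.870 CPM (log2 fold change 0.70, SE 0.16, adjusted p = 0.00860), although replicates 3 and 4 alone did not pass (0.278). Tnfrsf1a, the TNF receptor gene, rose by 0.20 (adjusted p = 0.0309), which did not hold when WT 2, WT 4 or any of Wfs1KO 1, 3 and 4 was left out (0.0596 to 0.0970). Endothelial markers, of cells that also carry these receptors, rose in 11 of 12 cases in the same libraries. The part of these cells in the rise of Fas and Tnfrsf1a was not tested.

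Of 14 tested regulators of BH3-only and pro-survival transcription 4 rose, 0 fell and 10 did not pass (median 0.12). Those that rose were Trib3 (1.70), E2f1 (0.55), Jun (0.43) and Atf4 (0.35). E2f1, a cell cycle factor that can induce BH3-only genes, went from 9.29 ± 2.04 to 13.7 ± 0.369 CPM (adjusted p = 0.00728), and Jun, a factor activated by stress kinases, from 31.4 ± 1.76 to 42.3 ± 5.75 CPM (adjusted p = 0.00398). Trib3 (adjusted p = 0.0239) did not pass when WT 2, WT 3 or any of Wfs1KO 1, 2 and 4 was left out (0.0536 to 0.0641), or under the replicate block (0.0916). Ddit3 encodes CHOP, which has been described as lowering Bcl2 and raising Bcl2l11 and Bbc3 in ER stress. Levels of Ddit3, 29.2 to 58.9 CPM in WT and 75.2 to 98.6 CPM in Wfs1KO, did not overlap. Ddit3 stood at 0.77 (adjusted p = 0.0592), and passed without WT replicate 4 (0.00339), with DESeq2 (0.00853) and with the replicate block (0.0379). In these islets Bcl2 was higher and Bcl2l11 lower, and Bbc3 did not pass. The part of CHOP in the levels of these genes was not tested. Foxo1 and Foxo3, described as activators of Bcl2l11, stood at -0.16 (adjusted p = 0.104) and -0.16 (0.144). Foxo1 passed without WT replicate 2 (0.0323) and with the replicate block (0.0443).

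Trp53, the gene of p53, stood at 25.6 ± 2.43 and 25.4 ± 3.22 CPM (log2 fold change -0.01, adjusted p = 0.944). Of 15 p53 targets outside the family 2 rose, 2 fell and 11 did not pass (median 0.12). The cell cycle inhibitor gene Cdkn1a rose from 44.1 ± 4.47 to 95.9 ± 15.2 CPM (1.12, SE 0.11, adjusted p = 7.43e-05) and the leucine sensor gene Sesn2, also an ATF4 target, by 0.61. Sesn1 fell by 0.26 and Tigar, which encodes a fructose bisphosphatase, by 0.33. The p53 targets within the family, Bax, Bbc3 and Pmaip1, did not pass, as given above.

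Of 16 genes that act on MCL1 stability or on BH3-only proteins 3 fell, 0 rose and 13 did not pass (median -0.06). Btrc, which encodes a ubiquitin ligase subunit that targets MCL1 and BIM, fell from 145 ± 7.87 to 111 ± 4.81 CPM (-0.39, SE 0.06, adjusted p = 2.64e-04). Akt2 fell by 0.21 (adjusted p = 0.0204), a call that was lost when any of WT 3, WT 4, Wfs1KO 1 and Wfs1KO 2 was left out (0.0501 to 0.0540). Map3k5, the stress kinase ASK1, fell by 0.20 (adjusted p = 0.0365), a call that was lost when WT 3, WT 4 or any of Wfs1KO 1, 2 and 3 was left out (0.0540 to 0.130).

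Of 10 genes of mitochondrial VDAC channels and BAX inhibitor motif proteins 4 rose, 1 fell and 5 did not pass (median 0.18), and 3 of these calls, given last, were lost when a single library was left out. Vdac1, the main pore of the outer mitochondrial membrane, fell from 190 ± 8.82 to 146 ± 3.06 CPM (-0.38, SE 0.05, adjusted p = 1.82e-04), and Vdac3 rose from 14.2 ± 0.549 to 19.1 ± 1.43 CPM (0.43, adjusted p = 0.00117). Vdac2, whose protein holds BAK at the membrane, was chosen after its value was seen and stood at 0.07 (adjusted p = 0.391). Tmbim6, the ER protein BAX inhibitor 1, rose by 0.21 (adjusted p = 0.0294), a call that was lost when WT 1, WT 2 or any 1 of the 4 Wfs1KO libraries was left out (0.0570 to 0.0932). Ghitm rose by 0.24 (adjusted p = 0.0218), lost when WT 3, WT 4 or Wfs1KO 4 was left out (0.0611 to 0.0707), and Tmbim1 by 0.20 (0.0167), lost when Wfs1KO 4 was left out (0.0606).

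**Figure D5:**
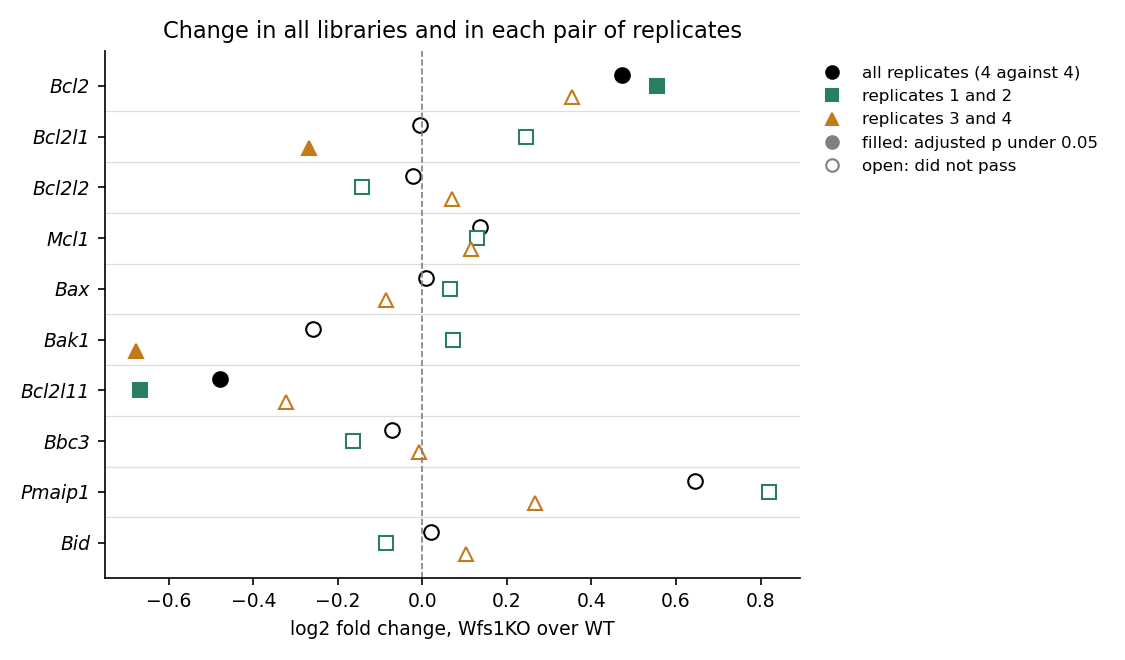
Log2 fold change of Wfs1KO over WT (horizontal axis) of the 10 members in all libraries (black circles), in replicates 1 and 2 (green squares) and in replicates 3 and 4 (orange triangles), with filled symbols for an adjusted p under 0.05. Bcl2 and Bcl2l11 keep their direction in both pairs (0.56 and 0.35, -0.67 and -0.32), and Bcl2l1 lies on opposite sides of 0 (0.25 and -0.27).

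In the comparison that the authors deposited, with its own scaling and tests, the authors' deposited table gave log2 fold changes of 0.42 for Bcl2 (adjusted p = 0.00229) and -0.46 for Bcl2l11 (6.9e-05). The authors' deposited table gave adjusted p-values from 0.0556 (Mcl1) to 0.989 (Bax) for the other 8 members.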

How the data were processed

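The submitters' processing notes name bcl2fastq, STAR 2.6.0a, HOMER 4.11.1, DESeq2 and the build mm10. Per the file headers, the deposited values are raw counts in exons, 1 entry per gene, with no strand option. The log2 fold changes and the p-values the authors deposited compare Wfs1KO with WT (sign checked against the counts), and their transformed log2 values per library were not used.

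The whole table was fitted in R 4.3.3 with edgeR 4.0.16 (filterByExpr with minimum count 10 and total 15, TMM scaling, robust quasi-likelihood F-test). Called means a Benjamini-Hochberg adjusted p under 0.05 over all 15733 tested genes, and only called genes are said to rise or fall. Adjusted p-values come from this edgeR test where no other tool is named. SE is the fold change over the root of F. CPM use TMM-scaled library sizes, CPM per kb also the deposited transcript length, and values are mean ± SD with n = 4. Nothing says the samples came from separate animals, so p-values measure the spread between samples. The fit was also run on simulated counts with the same dispersion for all genes and no split between replicates. That run checked the recovery of set fold changes and does not bear on the calls of these data.

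The members and lists were chosen with earlier results of these data known. All members were named, with up to 5 called genes per list and direction, the 3 most abundant other family genes and 9 fixed genes, of which 1 is not reported here. Of 104 genes in 7 lists, 97 were tested. Same-numbered WT and Wfs1KO samples deviated together (correlations across genes, which are not replicates, of 0.153, 0.443, 0.269 and 0.188). Samples with different numbers were not compared in this way, so a pairing of single samples was not tested. The replicate block therefore rests on the replicate numbers, whose meaning the labels do not give.

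Alternatives were DESeq2 1.42.0, its size factors, limma-voom (limma 3.58.1), no filter, a filter of 1 CPM, scaling without the 20 most abundant genes, the summed acinar markers as a covariate, the replicate block, a term for replicates 1 and 2 against 3 and 4, each library left out, and raw CPM for the order of levels. Fits of each pair of replicates alone were added after seeing the data. Exons were compared with GENCODE M21.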

Additional observations from a re-analysis of the deposited data

How the results depend on the processing

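The calls of Bcl2 and Bcl2l11 held under every alternative other than the fits of replicates 1 and 2 or 3 and 4 alone (adjusted p up to 0.0150 and 0.00550), and the other 8 members passed under none of them. In replicates 3 and 4 alone, chosen after seeing the data and with fewer samples, 0 members were called higher and 2 lower, and 1846 genes in all were called. There, Bcl2 was at 0.35 and Bcl2l11 at -0.32 (neither passed), Bcl2l1 at -0.27 and Bak1 at -0.68 (both passed), Bcl2l2 at 0.070 and Bax at -0.086. In replicates 1 and 2 alone Bcl2l1 was at 0.25, Bak1 at 0.072, Bid at -0.087, Cycs at -0.22 and Trp53 at 0.070. Other signs that turned were of values near 0. Bcl2l1 was at 0.00032 with limma-voom, 0.0028 with the replicate block and 0.0037 with the term for replicates 1 and 2 against 3 and 4. Bax was at -0.0054 with DESeq2 size factors, -0.0031 with DESeq2, -0.014 with the 20 most abundant genes left out and -0.062 with the acinar covariate, and Bid at -0.0022 and -0.038 with the last 2. With each library left out in turn, log2 fold changes ran from -0.074 to 0.091 for Bcl2l1, -0.066 to 0.022 for Bcl2l2, -0.038 to 0.065 for Bax, -0.036 to 0.084 for Bid, -0.087 to 0.113 for Apaf1, -0.056 to 0.156 for Cycs and -0.085 to 0.057 for Trp53. The cause of these turns was not tested. The replicate block changed the calls of Casp2, Trib3, Ddit3 and Foxo1 as given above and no other call among the named genes. By raw CPM, Bax ranked 4 among the members in WT, since its transcript is the shortest. Among the members, Pmaip1 rests on the fewest reads. With no filter on low counts, Map3k5 (adjusted p = 0.0794), Tmbim6 (0.0759), Akt2 (0.0529) and Tnfrsf1a (0.0524) lost their calls and Bnip3 passed (0.0380). With the acinar covariate Map3k5 (0.0933), Tnfrsf1a (0.0623), Casp2 (0.0597) and Tmbim6 (0.0558) lost theirs and Bnip3 passed (0.0319). With limma-voom Bnip3 (0.0457), Ddit3 (0.0444) and Foxo1 (0.0387) passed, as did Ddit3 (0.0217) and Foxo1 (0.0390) with the term for replicates 1 and 2 against 3 and 4.

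Because counting used no strand, reads of a gene and its antisense partner cannot be told apart. Exons of Bcl2 overlap D630008O14Rik over 558 bases, Bak1 overlaps Ggnbp1 over 614 and Bid overlaps another family gene, Bcl2l13, over 628. Bnip3, Btrc, Cdkn1a, Ddit3, Foxo1, Jun, Tigar and Tmbim1 also have such partners. On the same strand, Bax shares 192 bases with Gm45808 and Bcl2l2 594 with Gm20521.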

Other observations

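The counts of Casp9 and Cycs, which meet in the apoptosome, stood far from each other. Casp9 was at 500, 342, 810 and 355 CPM in WT and 307, 317, 133 and 613 CPM in Wfs1KO replicates 1 to 4 (log2 fold change -0.55, SE 0.52, adjusted p = 0.549). Its exons overlap those of the acinar enzyme genes Cela2a and Ctrc on the opposite strand over 94 bases. The summed acinar markers were highest in WT replicate 3 (70334 CPM) and lowest in Wfs1KO replicate 3 (9653 CPM), the same libraries in which Casp9 was highest and lowest. Cycs, the gene of cytochrome c, had 0.950 ± 0.208 CPM in WT and 0.988 ± 0.0746 CPM in Wfs1KO (SD, n = 4 each). How reads shared with close copies were counted is not given in the sources used here.

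By the smallest root mean square difference of centred log2 CPM over the 8 libraries, among 14357 genes, the genes most like Bcl2 were Ly6a (0.0543) and Gpr108 (0.0646), beside a median of 0.288. Those most like Bcl2l11 were Nrcam (0.0542) and Heg1 (0.0634), and those most like Bak1 were Dhx58 (0.0754) and Trim67 (0.0824). Ly6a and Gpr108 had log2 fold changes of 0.40 and 0.45, and Nrcam and Heg1 both of -0.44. Because these genes were picked by likeness over the same libraries, log2 fold changes near those of the members follow from the choice.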
